A study of Mus musculus with 2 samples.

Results

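The genes described here encode the signalling chains and co-receptors of the T-cell receptor, granule-associated genes of cytotoxic lymphocytes and an integrin of tissue-resident T cells. They were *Cd3d*, *Cd3e*, *Cd3g*, *Cd8a*, *Cd8b1*, *Cd4*, *Nkg7*, *Gzmb*, *Ctsw* and *Itgae*, which are 10 of the 27998 genes listed for both libraries. They were chosen by name, as rows of the deposited gene table and of both count matrices, and not by a measured value. Earlier results of these data were known when they were chosen. All 10 had at least 1 UMI in the cells kept. UMIs are molecular identifiers, each of which tags 1 captured mRNA molecule.

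The neurohypophysis (NH), the posterior lobe of the pituitary, was dissected from 3-month-old C57BL/6 males and dissociated with Liberase TM and papain. The study made 2 pools of 5 mice, both untreated, and captured the cells of each with the 10x Chromium system. Both pools are replicates of a single condition, so there was no treatment to compare, and the comparisons are among cell types. The tissue held residual intermediate lobe (IL), the mice were pooled, and the methods name no perfusion for the mice used for sequencing, so blood cells cannot be told apart from cells of the tissue by design.

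Of the 528 cells kept, 42 belonged to the type that the study named T-cell like, 26 in pool 1 and 16 in pool 2. The deposited name of this cluster was resident T cell-like. The paper, however, saw few Cd3-positive cells in the NH by immunostaining and considers it likely that they were transient cells from blood. Whether the cells were resident was not tested here. The other 486 cells were pituicytes (the glia of the lobe), macrophage/microglia, IL cells, vascular endothelia, vascular and leptomeningeal cells (VLMC) and epithelial-like cells. The T-cell like cells were shallow, with a median of 1596 UMIs and 685 genes per cell, against 2055.5 UMIs in pituicytes. Macrophage/microglia were at 1739 UMIs, and VLMC and vascular endothelia were shallower, at 1428 and 1412 UMIs. Their summed depth was 54928 UMIs in pool 1 and 29088 in pool 2, and the 14 sums of 7 types in 2 pools ranged from 8491 to 281271 UMIs. The deepest T-cell like cell of pool 1 held 9748 UMIs, 17.7% of that sum, and the deepest of pool 2 held 3883 UMIs, 13.3%. Levels are CPM, the UMIs of a gene per 1e6 UMIs of a sum. The 10x kit counts each molecule once, so levels were not divided by gene length. The type was built by the study from these same cells and genes, so a level in T-cell like cells against other types is a description and carries no test.

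T cells recognise antigen with a clonal receptor that has almost no intracellular part of its own. The CD3 chains, which assemble with it at the membrane, carry the tyrosine motifs (ITAMs) that are phosphorylated when the receptor is engaged. CD8, a dimer of alpha and beta chains, and CD4 are co-receptors that bind class I and class II major histocompatibility molecules and bring the kinase Lck to the complex. Cytotoxic T cells and natural killer (NK) cells kill targets by releasing granules of perforin and granzymes. T cells that settle in tissues for long periods are often marked by the integrin CD103, which binds E-cadherin.

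The CD3 genes lie side by side on chromosome 9 of GRCm38 (mm10). *Cd3g* spans chr9:44969572-44980431 on the minus strand, *Cd3d* chr9:44981786-44987339 on the plus strand and *Cd3e* chr9:44998740-45009627 on the minus strand. Their full extent is 40056 bases. *Cd3g* and *Cd3d* are read away from each other, from starts 1355 bases apart. The ITAM is the feature that the CD3 chains share and the other members lack. In the coding exons a script searched for a tyrosine codon, any 2 codons and a leucine or isoleucine codon, then 6 to 8 codons and the same 4-codon pattern again. It was found in 3 of the 10 members, the CD3 genes, and in 623 of 21562 coding genes (2.89%). The 45 bases found in each are given below on the coding strand, with the tyrosine and the leucine or isoleucine codons in capitals.
Cd3d: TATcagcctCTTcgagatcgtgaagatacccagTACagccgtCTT
Cd3e: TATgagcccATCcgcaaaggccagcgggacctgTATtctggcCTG
Cd3g: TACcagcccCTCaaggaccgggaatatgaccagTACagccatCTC
They are codons 149 to 163 of 173 in *Cd3d* (chr9:44986095-44986311, exons 4 and 5), codons 170 to 184 of 189 in *Cd3e* (chr9:44999549-45000440, exons 7 and 8) and codons 160 to 174 of 182 in *Cd3g* (chr9:44970735-44971268, exons 5 and 6). Each stretch is split by an intron and lies near the end of the coding sequence. *Cd3d* and *Cd3g* were identical at 32 of the 45 bases (71.1%), and *Cd3e* matched each of them at 21 (46.7%).

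The windows upstream of the divergent pair *Cd3g* and *Cd3d* and of *Gzmb* are shown as examples. These genes had nearly all their UMIs in the same 42 cells, *Gzmb* with only 10. *Cd3e* and *Nkg7*, with 43 of 44 and 149 of 153 UMIs there, were searched too but are not shown. The RefSeq promoter table (GRCm38.p6) held 6 of the 10 members, and the 250 bases before the start were searched on both strands for the letters TGTGGT (a RUNX core), AGGAAGT (an ETS core) and TATAAA. Matches are in capitals.
Cd3d: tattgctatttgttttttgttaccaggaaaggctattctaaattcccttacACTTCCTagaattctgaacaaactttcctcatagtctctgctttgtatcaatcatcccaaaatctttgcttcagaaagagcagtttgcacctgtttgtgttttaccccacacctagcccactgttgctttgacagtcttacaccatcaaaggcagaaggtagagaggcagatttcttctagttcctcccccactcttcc
Cd3g: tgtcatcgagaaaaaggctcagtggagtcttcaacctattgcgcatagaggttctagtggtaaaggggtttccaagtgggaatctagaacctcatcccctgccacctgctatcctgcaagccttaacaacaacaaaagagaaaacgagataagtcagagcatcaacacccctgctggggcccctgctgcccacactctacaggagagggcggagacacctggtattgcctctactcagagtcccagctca
Gzmb: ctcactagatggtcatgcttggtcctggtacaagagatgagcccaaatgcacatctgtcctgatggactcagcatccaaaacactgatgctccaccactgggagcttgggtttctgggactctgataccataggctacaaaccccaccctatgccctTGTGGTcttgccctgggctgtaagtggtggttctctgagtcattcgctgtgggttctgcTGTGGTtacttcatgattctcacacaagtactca
These are chr9:44981536-44981785 (plus strand), chr9:44980432-44980681 (minus strand) and chr14:56262335-56262584 (minus strand). *Cd3d* held 1 ETS match and so did *Cd3e*, *Gzmb* held 2 RUNX matches and *Nkg7* 1, and none of these letters was found for *Cd3g* and *Cd8a*. No TATAAA was found in the 6 windows. Among all 32851 promoters of the table, 14.05% held the RUNX letters, 7.69% the ETS letters and 12.4% TATAAA. A match is a description of these letters and not a binding site.

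The CD3 chains were read almost only from T-cell like cells. Those cells held 169 of the 173 CD3 UMIs kept (97.7%), at 1802 CPM in pool 1 and 2406 CPM in pool 2 (mean 2104 ± 427, SD, n = 2 pools), against 2.98 CPM over all other cells. *Cd3d*, the delta chain, had 44 UMIs in pool 1 and 25 in pool 2, or 801 and 859 CPM (830 ± 41.3, SD, n = 2). Both pools lay above every other sum, of which vascular endothelia of pool 1 was the highest at 88.1 CPM, from 1 UMI. In all other cells there were 3 *Cd3d* UMIs, in 3 of 486 cells, and the T-cell like level was 367 times theirs (95% exact interval 121 to 1825, counting error only).

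*Cd3e*, the epsilon chain, had 27 and 16 UMIs, which are 492 and 550 CPM (521 ± 41.4, SD, n = 2). A single *Cd3e* UMI was found elsewhere, in an epithelial-like cell. *Cd3g*, the gamma chain, had 28 and 29 UMIs, which are 510 and 997 CPM (753 ± 345, SD, n = 2), and 0 in all other cells. Against the limit of 3 counts over all other cells its level was 304-fold higher, which leaves out the counting error of its own 57 UMIs. The pools thus lay close together for *Cd3d* and *Cd3e* and further apart for *Cd3g*. Without the deepest cell of each pool, *Cd3d* was at 819 and 833 CPM, *Cd3e* at 487 and 436 CPM and *Cd3g* at 509 and 1111 CPM. Reads of *Cd3e* and of an antisense transcript annotated over 3557 of its bases could be told apart only by strand, and the strand setting is not given in the sources used here. A further transcript on the same strand covers 1206 bases of *Cd3e*, where strand cannot separate them.

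*Cd3d* was found in 16 of 26 cells of pool 1 and 10 of 16 of pool 2, *Cd3e* in 13 and 7, and *Cd3g* in 13 and 12. No cell had more than 7 UMIs of a single chain. Not every T-cell like cell carried a CD3 UMI. Any CD3 chain was found in 33 of 42 cells (78.6%, exact Clopper-Pearson 95% interval 63.2 to 89.7%), in 19 of 26 cells of pool 1 and 14 of 16 of pool 2. Of the 42 cells, 14 had all 3 chains, 10 had 2, 9 had 1 and 9 had none. After each cell was thinned to 1000 UMIs, 30 of 42 still had a CD3 UMI (71.4%). Pituicytes, which should lack the chains and were deeper, had a CD3 UMI in 0 of 196 cells, which allows a share of cells with a UMI of up to 1.53%. The study named the T-cell like type in part by *Cd3d*, so this share is background beside the 78.6% and no test. Intervals and limits cover counting error only, as molecules of 1 cell are not independent samples of the tissue.

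**Figure D1:**
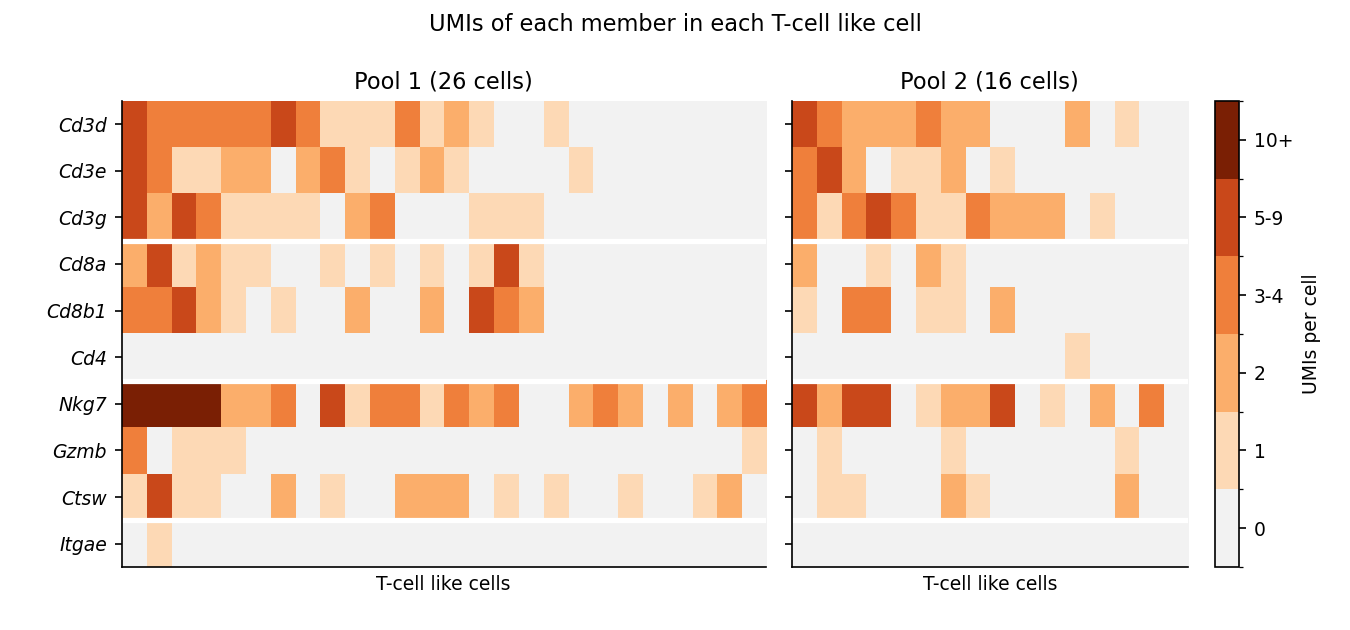
UMIs of each of the 10 genes (rows) in each T-cell like cell (columns), 26 cells of pool 1 and 16 of pool 2, ordered within a pool by CD3 UMIs and then CD8 UMIs. The columns without a CD3 UMI at the right of each panel, 7 and 2 cells, also lack UMIs of both CD8 chains, while *Nkg7* extends into them.

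Among the co-receptors, both CD8 chains were present in T-cell like cells and *Cd4* was nearly absent. *Cd8a* and *Cd8b1* lie next to each other on chromosome 6 (chr6:71373427-71379173 and chr6:71322788-71337494), on the same strand with no coding gene in the 35932 bases between them. *Cd8a*, the alpha chain, had 22 UMIs in pool 1 and 6 in pool 2, which are 401 and 206 CPM (303 ± 137, SD, n = 2). *Cd8b1*, the beta chain, had 32 and 11 UMIs, which are 583 and 378 CPM (480 ± 145, SD, n = 2). Both chains were above every other sum in both pools, although the pools differed between themselves. Other cells held 5 *Cd8a* UMIs, 3 of them in 1 macrophage/microglia cell, and 2 of *Cd8b1*. The T-cell like level was 89.5 times that of other cells for *Cd8a* (34.1 to 297) and 344 times for *Cd8b1* (89.5 to 2927).

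*Cd4* (chr6:124864692-124888221, minus strand) had 0 UMIs in T-cell like cells of pool 1 and 1 in those of pool 2, which is 34.4 CPM. The other *Cd4* UMIs were 2 in macrophage/microglia, 1 per pool, at a highest sum of 11.3 CPM. T-cell like and macrophage/microglia sums overlapped for this gene, and the ratio to all other cells was 7.99 with an interval of 0.135 to 153. That single T-cell like cell had 1191 UMIs and 2 of *Cd3d*, and none of the other members.

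By co-receptor UMIs, 20 of the 42 cells were CD8 without *Cd4* (47.6%, 32.0 to 63.6%), 1 was *Cd4* without CD8, none had both and 21 had neither. Pool 1 held 14 CD8 cells of 26 and pool 2 held 6 of 16. *Cd8a* was found with *Cd8b1* in 13 of the 16 cells that had it, so that UMIs of the alpha and beta chains mostly came from the same cells. All 20 CD8 cells and the *Cd4* cell also had a CD3 UMI, which left 12 cells with CD3 and no co-receptor UMI. A cell without a UMI may still express the gene. The median depth was 1743 UMIs in the CD8 cells and 1562 UMIs in cells with neither co-receptor, and thinned to 1000 UMIs, 16 of 42 cells had a CD8 UMI (38.1%).

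*Nkg7* was the member found in most cells, and the granule genes as a group were read almost only from T-cell like cells. *Nkg7*, *Gzmb* and *Ctsw* together had 191 UMIs in T-cell like cells, at 2585 and 1685 CPM (2135 ± 637, SD, n = 2), and 4 in all other cells. *Nkg7* (chr7:43437073-43438249), a membrane protein of cytotoxic granules, had 110 and 39 UMIs, which are 2003 and 1341 CPM (1672 ± 468, SD, n = 2). It was found in 32 of 42 cells (76.2%, 60.5 to 87.9%), in 21 of 26 of pool 1 and 11 of 16 of pool 2. *Nkg7* thus marked about as many cells as the 3 CD3 chains together, but not the same cells, since 26 of its 32 cells had CD3 and 6 did not. Its highest counts, 13, 13, 18 and 20 UMIs, came from the 4 deepest T-cell like cells of pool 1, of 3662 to 9748 UMIs, while no cell of pool 2 had more than 7. Other cells held 4 *Nkg7* UMIs in 3 cells, giving a ratio of 595 (228 to 2213).

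*Ctsw* (chr19:5465043-5468507, minus strand) encodes cathepsin W, a cysteine protease of cytotoxic lymphocytes. It had 25 UMIs in pool 1 and 7 in pool 2, which are 455 and 241 CPM (348 ± 152, SD, n = 2), in 14 of 26 cells of pool 1 and 5 of 16 of pool 2. Of these 19 cells, 16 also had *Nkg7* and 15 had *Cd3d*. No other cell held a *Ctsw* UMI, and against the limit of 3 counts its level was 170-fold higher, without the counting error of its own 32 UMIs. *Gzmb* (chr14:56258838-56262260, minus strand), which encodes the serine protease granzyme B, had 7 and 3 UMIs, or 127 and 103 CPM (115 ± 17.2, SD, n = 2), in 8 of 42 cells (19.0%, 8.60 to 34.1%). It too was at 0 in all other cells, 53.3-fold lower at the limit of 3 counts, without the counting error of its own 10 UMIs. In cells thinned to 1000 UMIs, *Gzmb* was left in 3 of 42, and 3 of its 10 UMIs had come from the deepest cell of pool 1. Thinning left *Nkg7* in 28 of its 32 cells, so *Gzmb* was the granule gene that depth limited more. Of the 8 cells with *Gzmb*, 7 also had *Nkg7* and 5 had each CD8 chain.

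*Itgae* (chr11:73090583-73147446), which encodes the integrin chain CD103, did not follow the other members. It had 1 UMI in T-cell like cells of pool 1 and 0 in pool 2, or 18.2 and 0 CPM. Pituicytes held 6 *Itgae* UMIs in 3 of 196 cells, at 21.2 CPM in pool 1, above both T-cell like values. Over all other cells the ratio was 2.66 with an interval of 0.0579 to 21.9, and a difference was not detectable at this depth. *Haspin*, on the opposite strand, overlaps 2810 of the 56864 bases of *Itgae*. Reads within that overlap can be told apart only by strand, and the strand setting is not given in the sources used here.

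Of the 456 UMIs of the 10 members, 433 (94.96%) lay in the 42 T-cell like cells. Both T-cell like sums were above all 12 other sums for 8 of the 10 members, the exceptions being *Cd4* and *Itgae*. Both T-cell like sums were likewise above all others for 3.39% of the 9760 genes with at least 15 UMIs and for 2.87% of the 16258 genes with any UMI. A sum of 0 in few cells sets a weak limit. At 3 counts it allowed up to 353 CPM in VLMC and 264 CPM in vascular endothelia, both of pool 1. These limits are above both *Gzmb* values (127 and 103 CPM) and the pool 2 values of *Cd8a* (206 CPM) and *Ctsw* (241 CPM). At least 1 member was found in 40 of the 42 cells, in 25 of 26 in pool 1 and 15 of 16 in pool 2. Of the members, 7 had at least 15 UMIs in all, while *Gzmb* had 10, *Itgae* 7 and *Cd4* 3. As the study's clusters were built on genes that may include these, the count describes the type and does not test it. When the cells were clustered again with the members and the T, NK and cytotoxic lists left out, 95 genes in all, 1 cluster held the same 42 cells and no other cell. The split was thus present without these 95 genes. Other genes that followed the CD3 chains, such as *Gimap3* and *Ltb*, were not left out, and the cells were the same.

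The deposited cluster means, which are the authors' values over both pools in UMIs per 10000, can be read beside these sums. Their T-cell column was the highest of 11 for 8 members, at 8.10 for *Cd3d*, 6.99 for *Cd3g*, 16.1 for *Nkg7* and 0.945 for *Gzmb*. For *Cd3g*, *Gzmb* and *Ctsw* it was the only column above 0. For *Cd4* it was at 0.2002 against 0.461 in the column microglia b/macrophage, and for *Itgae* at 0.0651 against 0.118 in pituicytes a.

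**Figure D2:**
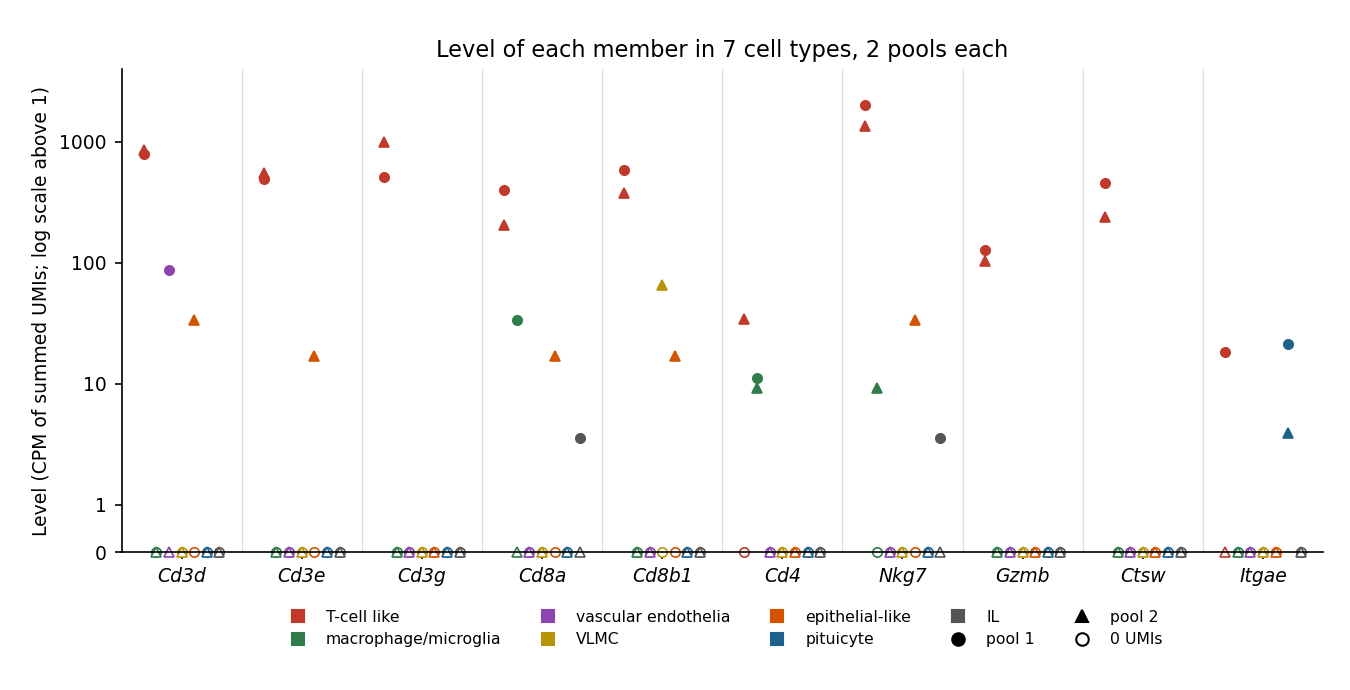
Level of each of the 10 genes (CPM of summed UMIs, log axis above 1) in 7 cell types, with circles for pool 1, triangles for pool 2 and open symbols for sums of 0 UMIs. Red T-cell like points sit above all other types for 8 genes, at 103 to 2003 CPM, and for *Cd4* and *Itgae* they overlap with macrophage/microglia or pituicytes.

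**Figure D3:**
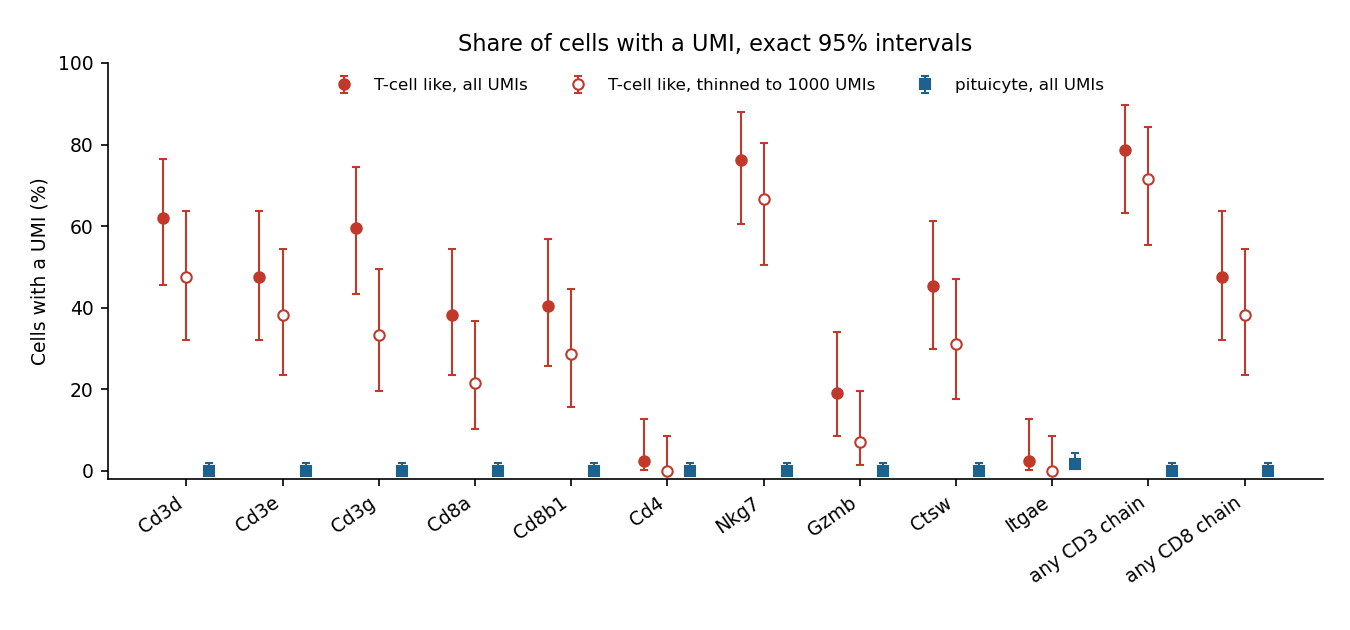
Share of T-cell like cells with a UMI of each gene or group (%), from all UMIs (filled red) and after thinning to 1000 UMIs per cell (open red), beside pituicytes (blue squares). Bars are exact 95% intervals over 42 and 196 cells, and thinning lowered any CD3 chain from 78.6 to 71.4% and *Gzmb* from 19.0 to 7.14%.

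The 9 T-cell like cells without a CD3 UMI had more UMIs of NK genes than the 33 with one, relative to their depth. Their median depth was 1562 UMIs against 1608, and 7 of them were in pool 1. None had a UMI of *Cd8a*, *Cd8b1* or *Cd4*. *Nkg7* was found in 6 of the 9 and in 26 of the 33, *Ctsw* in 3 and 16, and *Gzmb* in 1 and 7. The list of NK and innate lymphoid genes summed to 3692 CPM (54 UMIs, 8 of 9 cells) in the cells without CD3 and 576 CPM (40 UMIs, 16 of 33 cells) in those with it. *Tyrobp* and *Fcer1g*, adaptors that signal for activating NK receptors and for Fc receptors, led the list, with 18 and 12 UMIs in the 9 cells and 6 and 5 in the 33. In pool 2, 0 of the 2 cells without CD3 had *Tyrobp* and 1 had *Fcer1g*. Some other lists were also higher without CD3, by smaller factors. Tissue residency genes were at 2940 CPM (43 UMIs) without CD3 and 1845 CPM (128 UMIs) with it. CD4 helper and regulatory genes were at 820 CPM (12 UMIs) and 461 CPM (32 UMIs). The cytotoxic list was lower without CD3, at 10666 against 15247 CPM.

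Chosen after their values were seen, *Ncr1* (the NK receptor NKp46) had 3 UMIs in the cells without CD3 and 0 in the others, *Klrb1c* (NK1.1) 5 and 1, and *Klre1* 6 and 2. *Klra4* and *Klra8*, which encode Ly49 receptors, went the other way, with 0 UMIs in the cells without CD3 and 4 and 2 UMIs in cells with it, each gene in 1 cell. Any of *Ncr1*, *Klrb1c*, *Klre1*, *Klra4* and *Klra8* was found in 6 of 9 cells without CD3 and in 3 of 33 with it. *Lat*, also chosen in this way, the scaffold that the receptor's kinases phosphorylate, had 0 and 28 UMIs. Other genes of the list of the receptor complex and its signalling were present in the cells without CD3, 10 of 19 with a UMI. That list stood at 2803 CPM (41 UMIs, 9 of 9 cells) without CD3 and 4237 CPM with it. Of the 41 UMIs, 17 were of the phosphatase gene *Ptpn22*, which stood at 1162 and 793 CPM. *Tyrobp* and *Fcer1g* are also macrophage genes, at up to 3395 and 2402 CPM in macrophage/microglia sums. The macrophage/microglia marker list stood at 273 CPM (4 UMIs) in the 9 cells and 86.5 CPM (6 UMIs) in the 33, and its part in this difference was not tested. The groups were formed by CD3 UMIs of shallow cells, so the values are given as a description.

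Further genes of the receptor pathway were read from the same cells. Of 22 genes listed for the receptor complex and its proximal signalling, 19 were measured and 12 were above every other type in both pools. That share was 3.39% over all genes with at least 15 UMIs. The median log2 ratio to the mean of the other types was 1.38 (50 CPM added), against -0.28 over all those genes. In this list and those below, some genes counted as not overlapping were under the limits of 353 and 264 CPM for VLMC and vascular endothelia of pool 1. Chosen after their values were seen, *Zap70*, *Cd6* and *Cd96* stood at 34.4 to 68.8 CPM. *Ptpn22*, a phosphatase that restrains the receptor's kinases, had 72 UMIs at 728 and 1100 CPM. *Ptprcap*, which associates with the CD45 phosphatase, had 38 UMIs at 546 and 275 CPM. *Thy1*, a surface glycoprotein of T cells, had 37 UMIs at 455 and 413 CPM. *Lck*, the kinase carried by the co-receptors, had 34 UMIs at 401 and 413 CPM. *Lck* and *Thy1* each also reached 176 CPM in vascular endothelia of pool 1, a sum of 6 cells in which 1 UMI is 88.1 CPM. All 4 were above every other sum in both pools. The constant genes of the receptor's alpha and beta chains (*Trac*, *Trbc1*, *Trbc2*) had no row under these names in the count matrices. They could therefore not be analysed here.

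Of 21 cytotoxic granule and effector genes, 10 were above every other type in both pools (median log2 ratio 1.23). *Ccl5*, a chemokine of effector lymphocytes, had 953 UMIs in T-cell like cells, at 9176 and 15436 CPM, in 38 of 42 cells. *Klrd1*, a subunit of receptors for class I molecules (CD94), had 40 UMIs at 583 and 275 CPM and did not overlap with other types. *Srgn*, the proteoglycan core of granules, and *Ccl4*, a chemokine, did overlap, with up to 561 CPM in vascular endothelia and 6246 CPM in macrophage/microglia against 413 CPM in T-cell like cells of pool 2. The pore-forming effector *Prf1* had 0 UMIs in all 528 cells. In T-cell like cells, 0 of 42 allows a share of cells with a UMI of up to 7.14%, which does not limit the share that expressed it. Chosen after their values were seen, the granzyme genes *Gzma* and *Gzmk* had 1 and 10 UMIs.

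For tissue residency, 5 of 9 genes did not overlap with other types. *Rgs1*, a regulator of chemokine receptor signals, had 67 UMIs at 710 and 963 CPM, *Cxcr6*, a chemokine receptor, 39 UMIs at 437 and 516 CPM, and *Runx3*, a transcription factor of CD8 T cells, 21 UMIs at 237 and 275 CPM. *Bhlhe40*, a transcription factor, had 14 UMIs at 146 and 206 CPM. It overlapped with vascular endothelia of pool 2 at 160 CPM, in a sum of only 7 cells and 12488 UMIs. Chosen after its value was seen, *Cd69* had 13 UMIs in 10 of 42 cells. The integrin *Itgae* was thus at 1 UMI while *Cxcr6* was found in 23 of 42 cells. Among recirculation genes, *Il7r*, the receptor chain for interleukin-7, had 4 UMIs in T-cell like cells and *Ccr7*, a chemokine receptor that guides T cells into lymph nodes, had 0.

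Of 10 genes of helper and regulatory CD4 T cells, 3 did not overlap, *Il2ra*, *Icos* and *Cd40lg*. The share was 3.39% over all genes with at least 15 UMIs and 2.87% over those with any UMI. These 3 genes stood at 18.2 to 138 CPM, under the 353 and 264 CPM that 3 counts allow in VLMC and vascular endothelia of pool 1. The summed list was at 364 and 825 CPM. *Gata3* had 11 UMIs and overlapped with macrophage/microglia, *Cd40lg* had 9, *Il2ra* 6 and *Icos* 5. *Foxp3*, which defines regulatory T cells, had 0 UMIs. Of 13 NK and innate lymphoid genes, 4 did not overlap, among them *Il2rb*, the beta chain of the interleukin-2 receptor, with 19 UMIs in T-cell like cells and 0 elsewhere. The levels of all 4 were under the same limits. *Tyrobp* had 24 UMIs, *Fcer1g* 17 and *Il18r1* 9, and all overlapped with other types. The 4 measured genes of the gamma-delta list were at 0, but its receptor genes had no row under their listed names and were not analysed.

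Markers of other cells were low in the T-cell like sums. B cell genes (5 measured) and neutrophil genes (5) were at 0 UMIs. Dendritic cell genes had 6 UMIs, macrophage/microglia genes 10, or 127 and 103 CPM against up to 22048 CPM in macrophage/microglia. Their defining genes *C1qc* and *Cx3cr1* were at 0, and *C1qa* had 4 UMIs in 3 cells. Erythrocyte genes had 6 UMIs, 5 of them *Hbb-bs*. Pituicyte genes had 2 UMIs and VLMC genes 1, and vascular endothelia and epithelial-like genes 0. IL cell genes, with 46 of their 49 UMIs from *Pomc*, summed to 510 and 722 CPM against up to 126319 CPM in IL cells. None of the genes in these lists was above every other type in the T-cell like sums. *Ms4a4b*, with which the study named the type beside *Cd3d*, was found in 25 of the 33 cells with CD3 and 5 of the 9 without.

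**Figure D4:**
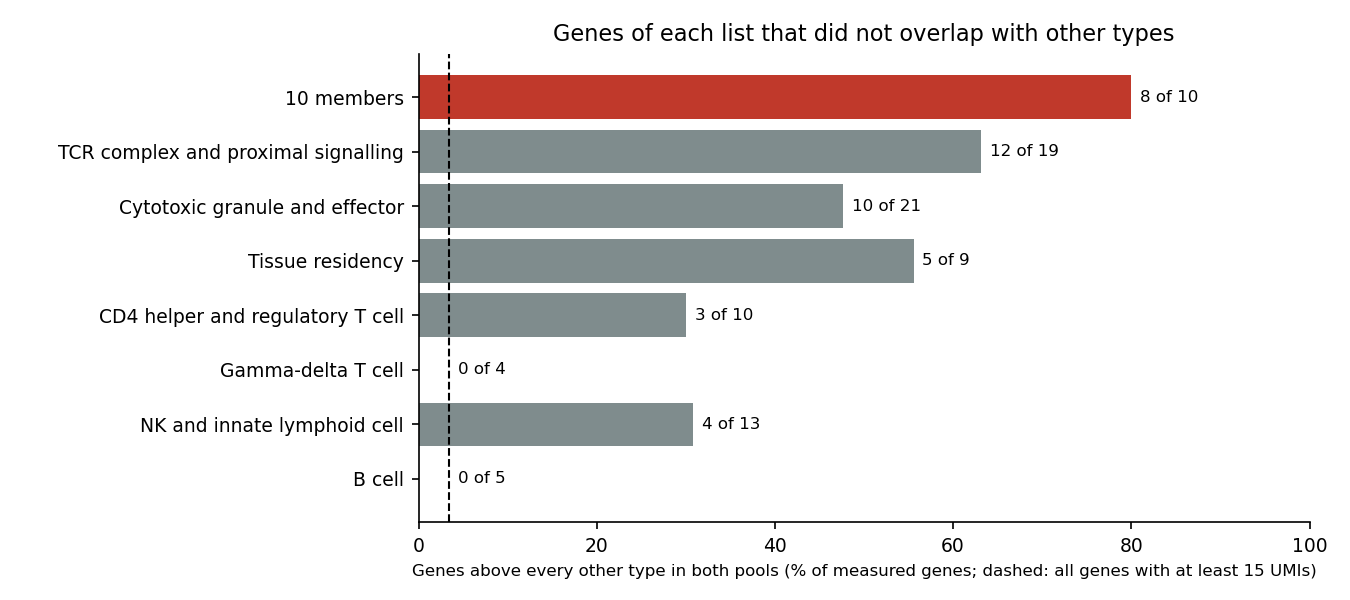
Share of the measured genes of each list whose level in T-cell like cells was above every other type in both pools (bars, %), with the counts beside the bars and a dashed line for all genes with at least 15 UMIs (3.39%). The 10 genes described (red) reached 8 of 10, the receptor list 12 of 19 and the B cell list 0 of 5.

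Over the 14 sums, the genes outside the members and lists whose level was most like that of the summed CD3 chains were *Gimap3* (Pearson r = 0.988), *Ltb* (0.987), *Cd7* (0.984) and *Sh2d1a* (0.968). They were followed by *Hcst* (0.948), *Bcl2* (0.922), *Shisa5* (0.920) and *Gimap4* (0.919), among 630 genes with at least 15 UMIs in T-cell like cells. The correlation was taken on log2(CPM + 100) and is a description, as the sums share 2 libraries and differ in depth. The CD3 chains had 4 UMIs in all other types, so r mostly restates the contrast of the 2 T-cell like sums with the rest. Of the 630 genes, members and lists included, 33 had r over 0.9. Chosen after their values were seen, the ribosomal genes *Rps23* (0.909) and *Rpl36* (0.903) were among them. *Gimap3*, a GTPase of lymphocytes, had 47 UMIs in 28 T-cell like cells and 1 UMI elsewhere, at 564 and 550 CPM. *Hcst*, the adaptor DAP10, had 64 UMIs in 30 cells and 10 elsewhere. *Bcl2*, an inhibitor of apoptosis, was less restricted, with 51 UMIs in T-cell like cells and 57 in others.

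In the 486 other cells the members left 23 UMIs, in 14 cells, of which 1 had more than 1 member. That cell, epithelial-like in pool 2 with 6181 UMIs, had 1 UMI each of *Cd3d*, *Cd3e* and *Cd8b1* and 2 of *Nkg7*, with 11 of *Ccl5*. Scrublet called 5 doublets among the 528 cells and none among the T-cell like cells. Free RNA was read from barcodes of 1 to 50 UMIs, of which pool 1 had 157608, and the CD3 chains had 36 UMIs there, or 19.0 CPM. In barcodes of 51 to 200 UMIs the CD3 chains were at 6.18 CPM, from 6 UMIs, and in those of more UMIs, up to 500, at 5.33 CPM, from 2 UMIs. These levels, like the 2.98 CPM of the other cells kept, were far under those of T-cell like cells.

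**Figure D5:**
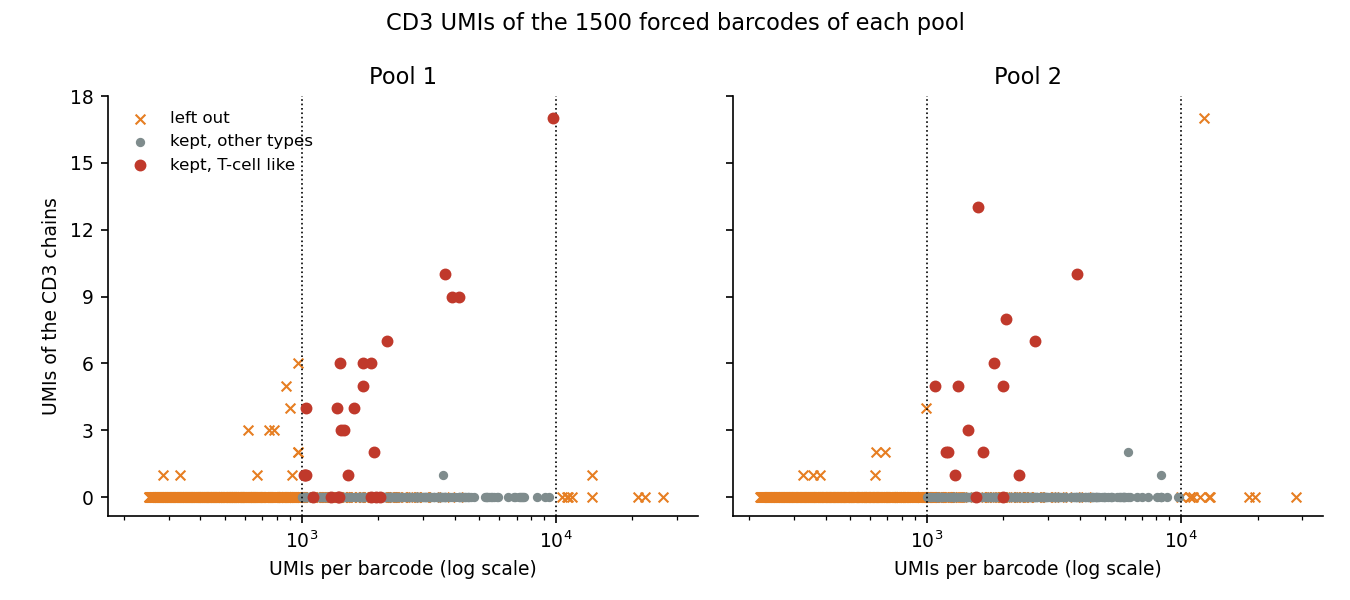
UMIs of the CD3 chains against all UMIs per barcode (log axis) for the 1500 forced barcodes of each pool, as kept T-cell like cells (red), kept cells of other types (grey) and barcodes left out (orange crosses); dotted lines mark the limits of 1000 and 10000 UMIs. Of 21 crosses with CD3 UMIs, 19 lie under the lower limit, between 286 and 996 UMIs, and 2 above the upper one, 1 of them in pool 2 with 17 CD3 UMIs.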

How the data were processed

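For both pools the deposited matrices hold raw UMI counts, which the authors made with Cell Ranger 2.0.0 at 1500 forced cells on an mm10 reference. The submitters' processing notes also name STAR 2.5.1b and Seurat 2.3. A further table by the authors gives means for 11 clusters of cells from both pools, in UMI counts scaled to 10000 per cell. Pool 1 listed all 737280 barcodes and was reduced to the 1500 with most UMIs. Barcodes were kept as cells with more than 1000 and at most 10000 UMIs, between 400 and 5000 genes, and under 25% mitochondrial UMIs, 273 in pool 1 and 255 in pool 2, with 699676 and 726706 UMIs. No barcode was shared between the kept cells of the pools. Each cell was assigned to 1 of the 11 clusters by solving which cells make up each deposited mean (lowest weight 0.972, highest other weight 0.00333), which needed a lower limit that excluded exactly 1000 UMIs. For 349 of 15025 genes the mean of the assigned cells differed from the deposited one by over 0.05 in some cluster, at most by 1.46. The clusters were merged to 7 types.

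Counts were summed per pool and type and given as CPM with mean and SD over 2 pools. No test was run, since the types come from the same cells. A gene did not overlap when both T-cell like sums lay above the 12 others. Shares have exact Clopper-Pearson intervals, ratios exact conditional intervals, and a count of 0 the limit of 3 counts. Thinning used a fixed seed. Alternatives were a single pool, a stricter mitochondrial or UMI limit, no doublets, new clusters, other scalings, a 2-UMI or 3-UMI threshold and another added CPM. TMM factors came from edgeR 4.0.16 in R 4.3.3, doublets from Scrublet (scanpy 1.11.5) and the rest from numpy 2.4.6, scipy 1.17.1, pandas 2.3.3 and scikit-learn 1.9.0. The sums and calls were tested on simulated data. Coordinates and coding exons are from GENCODE on GRCm38.

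The members and gene lists were chosen with earlier results of these data known. The genes named are the 10 members, up to 4 genes with most T-cell like UMIs per list, defining genes at 0, and the 8 genes outside the lists most correlated with the summed CD3 chains among those with at least 15 T-cell like UMIs. Of 152 listed genes, 11 had no row under their names in the count matrices and were not analysed here. Counts over the recirculation list are not reported here.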

Additional observations from a re-analysis of the deposited data

Results flagged for a closer look

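CD3 UMIs were also found in barcodes that the cell limits left out. Outside the kept cells, 13 barcodes had at least 2 CD3 UMIs, 9 in pool 1 and 4 in pool 2. Of these, 11 held between 617 and 996 UMIs, 1 held 50 and 1 was over the upper limit. The latter, in pool 2, had 12267 UMIs with 17 of the CD3 chains, 8 of *Cd8a*, 10 of *Cd8b1*, 31 of *Nkg7* and 0 of *Cd4*. Of the 12 barcodes over 500 UMIs, 8 had a CD8 UMI, 1 had *Cd4*, 8 had *Nkg7* and 11 had *Ccl5*, so most carried the same genes as the kept T-cell like cells.

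In pool 1, 75 of 175 CD3 UMIs (42.9%) lay outside the kept cells, and in pool 2, 29 of 102 (28.4%). Pool 1 lists every barcode and pool 2 only 1500. Over the 1500 forced barcodes of pool 1, 33 of 133 CD3 UMIs were left out (24.8%), which is near the share of pool 2.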

How the results depend on the processing

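With a single pool, the members that did not overlap numbered 8 to 9 while the share of all genes was between 10.6 and 11.9% instead of 3.39%, since fewer sums had to be exceeded. Cells with a CD3 UMI then made up 73.1 to 87.5%, CD8 cells 37.5 to 53.8%, *Cd4* cells 0 to 6.25% and cells with neither co-receptor 46.2 to 56.2%. The median log2 ratio was 1.496 to 1.596 for the receptor list and 1.07 to 1.17 for the cytotoxic list. Thinning to 1000 UMIs, like asking for 2 UMIs, put cells with neither co-receptor at 61.9% instead of 50%. With 200 CPM added, the medians of the receptor and cytotoxic lists were 0.48 and 0.43, and with at least 1500 UMIs per cell the cytotoxic median was 0.93. With at least 3 CD3 UMIs, 8 barcodes outside the cell limits remained of 13. Apart from leaving out a pool, the mitochondrial limit, doublet removal and new clusters left the same 42 cells, so that 30 of 60 alternative member levels could not move. Of the other 30, 26 moved by less than the SD of the pools. That is a wide allowance, since for *Cd4* (17.2 CPM, SD 24.3) and *Itgae* (9.10 CPM, SD 12.9) even a fall to 0 lay within it. For other results, 27 of 50 values equalled the reported one and 16 of the other 23 moved by less than the spread or, for counts, the tolerance. Clustering without the members returned the same 42 cells.

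Each pool held all 7 types, but no paired analysis was run. The types of a pool were compared without a test, as they are clusters of the same cells. Depth limits *Cd4*, *Itgae* and *Gzmb* most, with 3, 7 and 10 UMIs in all.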

Other observations

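The macrophage/microglia cell that held 3 of the 5 *Cd8a* UMIs outside T-cell like cells had no UMI of a CD3 chain, *Cd8b1* or *Nkg7*. This cell, in pool 1 with 8407 UMIs, was examined after its values were seen. It had 26 UMIs of *Ccl5*, 6 of *Ccr7* and 4 of the B cell gene *Ms4a1*. Of the dendritic cell list it had 2 each of *Xcr1* and *Batf3* and 1 of *Zbtb46*. The other genes of that list, *Flt3*, *Clec9a*, *Itgax*, *Cd209a*, *Siglech*, *Ccr9* and *Irf8*, had no UMI in this cell. *Klrk1* of the cytotoxic list had 6 UMIs and *Klre1* of the NK list had 1. *C1qa*, *C1qb*, *C1qc*, *Cx3cr1* and *Csf1r*, genes of macrophages and microglia, were at 0 in it, while *Ctss* of the same list had 6 UMIs, and *Tyrobp* and *Fcer1g* had 3 and 4.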
